A study of Mus musculus with 8 samples.

Results

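A set of 10 ERK feedback and target genes was followed by symbol through the RNA sequencing of mouse cingulate cortex from 4 WT and 4 *Mvp* KO samples, and all 10 of them were among the 16914 genes tested, of 53379 genes listed. They are the MAP kinase phosphatases *Dusp4*, *Dusp5* and *Dusp6*, the Sprouty and Spred genes *Spry1*, *Spry2*, *Spry4* and *Spred3*, and the Pea3-type transcription factors *Etv1*, *Etv4* and *Etv5*. WT mice were *Mvp*+/+ and *Mvp* KO mice *Mvp*-/-, all of them male and on the C57BL/6N background. The KO allele is a gene trap from 1 embryonic stem cell clone, with a cassette in the first intron that carries a splice acceptor, β-galactosidase and neomycin resistance and ends transcription early, so every cell type of the mouse carries it. The age of these mice is not given in the sources used here. Total counts ran from 28456504 to 42854368 per sample. *Mvp*, which encodes the major vault protein, was at 5.49 to 7.89 CPM (a gene's count relative to its library total after TMM scaling) in the WT samples and at 1.44 to 2.13 CPM in the KO samples, with a log2 fold change of -2.06 ± 0.186 (SE, edgeR's quasi-likelihood test, Benjamini-Hochberg, adjusted p = 0.0162).

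The ERK kinases, of which *Mapk3* encodes ERK1, are the last kinases of the Ras, Raf and MEK cascade that growth factors, neurotrophins and synaptic activity switch on in neurons. Active ERK induces its own inhibitors: Dusp phosphatases take the phosphates off the kinase, and Sprouty and Spred proteins act between the receptor and Raf. *Etv1*, *Etv4* and *Etv5* are induced downstream of Fgf receptors and activated by ERK, and the RNA of these genes is widely read as a trace of recent pathway output. MVP has been linked to ERK signalling in cultured cells, and *Mapk3* lies in the same 16p11.2 syntenic interval as *Mvp*, which makes the pathway a question for the *Mvp* KO. The paper also reported behavioural changes in male mice heterozygous for both *Mvp* and *Mapk3*. From preliminary measurements in the cortex of its mouse models, it described ERK activity as not associated with the anatomical or behavioural phenotypes.

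One library has to be named before the results. The leading principal component of log2 CPM, with 46% of the variance, set WT replicate 4 (71.5) apart from the other 7 samples (-20.4 to -2.78). The log2 fold changes of the 10 genes are therefore given below with and without it. Those of all other genes include it. Its total count lay within the range of the other samples. In this sample 29.2% of all genes tested had their highest value of the 8 samples. Markers of cortical excitatory neurons were counted in every sample, in keeping with the labelled tissue. *Slc17a7*, the vesicular glutamate transporter of these neurons, was at 2731 CPM in WT replicate 4 and at 1335 to 1678 CPM in the other 7 samples. Of the 5 markers of this list, 3 were highest and 2 lowest in WT replicate 4, the latter being *Camk2a*, the gene of a calcium-dependent kinase, at 2356.5 against 2534.6 to 3681 CPM, and *Neurod6*, a transcription factor, at 94.2 against 122 to 147.5 CPM. The interneuron markers summed to 1651.5 CPM in WT replicate 4 against 776 to 949 CPM in the other 7 samples, with 3 of 5 highest and 1 lowest there. The striatal neuron markers summed to 166 CPM against 57.0 to 81.3 CPM, with 4 of 5 highest there, and 0 of the 5 markers in either list was at 0 in any sample. The oligodendrocyte markers summed to 1147 CPM in WT replicate 4 against 1292 to 4635 CPM, with 4 of 5 lowest there. The astrocyte markers summed to 1089 against 1102 to 1270 CPM, with 1 of 5 lowest there. Of all 16914 genes tested, 5498 were lowest in this sample. The part of these cell types in the results below was not tested, and in bulk tissue a change in the number of cells of a type and a change in RNA per cell cannot be told apart.

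Promoter windows of 300 bases from RefSeq (GRCm38.p6, the build of the counts) were matched for 7 of the 10 genes: *Dusp5*, *Dusp6*, *Spry1*, *Spry2*, *Spred3*, *Etv1* and *Etv5*. *Dusp4*, *Spry4* and *Etv4* were not matched. The windows were searched on both strands for the cyclic AMP response element TGACGTCA, the AP-1 element TGANTCA, the Ets site CCGGAAG and the CArG box, the core of the serum response element, which consists of a run of A or T between CC and GG. *Dusp5* was the one gene of the 7 with a match. It held 2 adjoining CArG boxes, at chr19:53529063-53529072 and chr19:53529073-53529082, which are bases -82 to -73 and -72 to -63 from the RefSeq start. A CArG box was found in 1.63% of the 32851 windows of all genes, TGACGTCA in 1.79%, TGANTCA in 7.81% and CCGGAAG in 8.86%. The stretch from 250 to 51 bases before the start is shown for the 4 matched genes that were highest in WT replicate 4, 5′ to 3′ on the strand of the gene and with CArG boxes in capitals. It lies at chr19:53528895-53529094 on the plus strand for *Dusp5*, chr10:99262981-99263180 on the plus strand for *Dusp6*, chr3:37639697-37639896 on the plus strand for *Spry1* and chr14:105896870-105897069 on the minus strand for *Spry2*.
Dusp5: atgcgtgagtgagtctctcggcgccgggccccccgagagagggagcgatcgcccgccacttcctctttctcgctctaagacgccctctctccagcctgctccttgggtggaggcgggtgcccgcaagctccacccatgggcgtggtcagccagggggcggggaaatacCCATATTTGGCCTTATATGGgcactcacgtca
Dusp6: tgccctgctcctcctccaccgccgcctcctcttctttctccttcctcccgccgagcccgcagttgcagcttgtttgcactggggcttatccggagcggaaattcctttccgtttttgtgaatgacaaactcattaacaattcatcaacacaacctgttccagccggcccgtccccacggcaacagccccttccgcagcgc
Spry1: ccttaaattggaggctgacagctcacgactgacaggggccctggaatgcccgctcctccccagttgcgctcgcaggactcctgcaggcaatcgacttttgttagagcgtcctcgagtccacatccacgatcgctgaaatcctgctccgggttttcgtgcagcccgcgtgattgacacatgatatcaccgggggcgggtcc
Spry2: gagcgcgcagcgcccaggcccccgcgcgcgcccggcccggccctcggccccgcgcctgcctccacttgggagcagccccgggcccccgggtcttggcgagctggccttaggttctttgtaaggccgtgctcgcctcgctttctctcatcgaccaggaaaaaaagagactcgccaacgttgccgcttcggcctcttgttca

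Between the genotypes, 0 of the 10 genes passed an adjusted p of 0.05 by edgeR's quasi-likelihood test, where 0.00591% of all genes tested did (the single gene *Mvp*). At an unadjusted p under 0.05 there were 0 of 10, against 1.56% of all genes tested, and DESeq2's Wald test and limma voom also gave 0 of 10 at both thresholds. The WT and KO values were free of overlap in 0 of 10 genes, against 1.52% of all genes tested. The log2 fold change was positive for 5 and negative for 5, with a median of -0.04 (KO minus WT), and the median over all genes was 0.00 to 2 decimals. The 5 genes with a lower KO mean, *Dusp4*, *Dusp5*, *Dusp6*, *Spry1* and *Spry2*, were also the 5 that had their highest value in WT replicate 4.

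**Figure D1:**
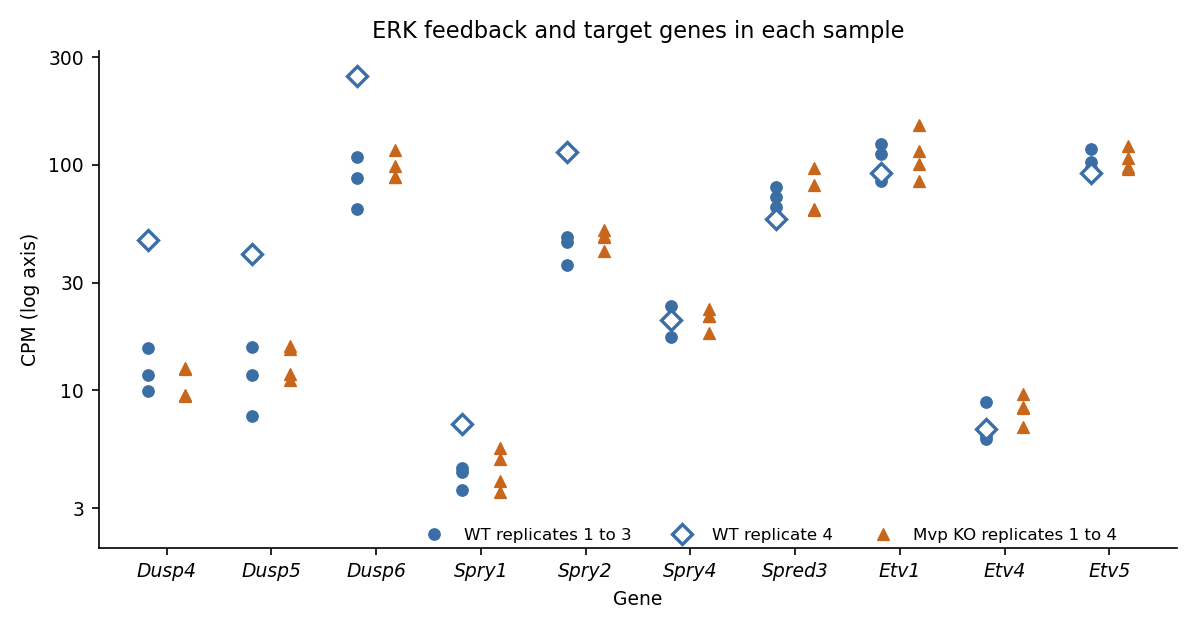
CPM (log axis) of each of the 10 genes in each of the 8 samples, with 1 point per sample. WT replicate 4 (open diamond) lies above all other samples for Dusp4, Dusp5, Dusp6, Spry1 and Spry2 and among or below them for Spry4, Spred3, Etv1, Etv4 and Etv5, and the WT and Mvp KO points overlap for every gene.

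*Dusp4* encodes a nuclear phosphatase that acts on ERK (chr8:34807297-34819894, plus strand). Its level was 9.94, 15.4, 11.6 and 46.2 CPM in WT replicates 1 to 4 and 9.53, 9.46, 12.4 and 12.6 CPM in KO replicates 1 to 4. WT replicate 4 was the one high sample, and the other 7 overlapped. The WT mean of 20.8 ± 17.1 CPM (SD, n = 4) compared with a KO mean of 10.99 ± 1.73 CPM (SD, n = 4). The log2 fold change was -0.92 ± 0.452 (SE, edgeR's quasi-likelihood test, unadjusted p = 0.0716, adjusted p = 0.969), which was the smallest p of the 10 genes. Without WT replicate 4 the WT mean was 12.3 ± 2.81 CPM (SD, n = 3), and the log2 fold change -0.17 ± 0.170 (SE, adjusted p = 1).

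*Dusp5* encodes an inducible nuclear phosphatase specific for ERK (chr19:53529109-53542431, plus strand), and it is the gene with the paired CArG boxes shown above. Its level was 7.70, 15.5, 11.7 and 40.3 CPM in WT replicates 1 to 4 and 15.7, 15.3, 11.8 and 11.1 CPM in KO replicates 1 to 4. WT replicate 4 was high and WT replicate 1 low, with the KO samples between them. The log2 fold change turned from -0.48 ± 0.443 (SE, edgeR, adjusted p = 0.969) to 0.21 ± 0.230 (SE, adjusted p = 1) without WT replicate 4. Of its exonic bases, 22.1% lie opposite *AC137853.2* on the other strand, and the strand setting of the counting is not given in the sources used here, so reads of that gene could be counted with it.

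*Dusp6* encodes a cytoplasmic ERK phosphatase (chr10:99263231-99267489, plus strand). Its level was 63.7, 108, 87.1 and 247 CPM in WT replicates 1 to 4, and 88.4, 117, 87.8 and 99.0 CPM in KO replicates 1 to 4. The KO samples lay inside the WT range. WT replicate 1 was again the lowest sample and WT replicate 4 the highest. The log2 fold change was -0.37 ± 0.364 (SE, edgeR, adjusted p = 0.969), and 0.18 ± 0.178 (SE, adjusted p = 1) without WT replicate 4.

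Among the Sprouty genes, whose products block Ras and Raf activation below receptor tyrosine kinases, *Spry2* (chr14:105891947-105896819, minus strand) went with the phosphatases. *Spry2* was at 35.9, 48.0, 45.3 and 114 CPM in WT replicates 1 to 4 and at 48.1, 51.2, 41.3 and 47.8 CPM in KO replicates 1 to 4. Apart from WT replicate 4 the groups overlapped closely, and the log2 fold change was -0.37 ± 0.321 (SE, edgeR, adjusted p = 0.969) with that sample and 0.13 ± 0.108 (SE, adjusted p = 1) without it. *Spry1* (chr3:37639947-37644598, plus strand), which acts in the same way, was at 3.60, 4.35, 4.52 and 7.11 CPM in the WT samples and at 4.94, 5.55, 3.55 and 3.97 CPM in the KO samples. Its excess in WT replicate 4 was smaller than that of *Spry2*, and its log2 fold change went from -0.12 ± 0.233 to 0.12 ± 0.178 (SE) when that sample was left out. For *Spry1*, 24.4% of the exonic bases lie opposite *Gm42922*.

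*Spry4*, the third Sprouty gene, was at 17.1, 23.7, 20.4 and 20.5 CPM in WT replicates 1 to 4 and at 21.4, 17.98, 21.3 and 22.8 CPM in KO replicates 1 to 4. WT replicate 4 ranked 5 of 8 samples, in contrast to *Spry1* and *Spry2*, and the log2 fold change was 0.03 ± 0.115 (SE, edgeR, adjusted p = 0.982), and 0.03 ± 0.120 without that sample. *Spred3* (chr7:29158829-29170411, minus strand) encodes a Spred protein, a relative of Sprouty that binds Ras pathway proteins at the membrane. It was at 65.1, 72.1, 79.6 and 57.4 CPM in the WT samples and at 63.6, 63.0, 81.5 and 97.1 CPM in the KO samples. *Spred3* was lowest in WT replicate 4 and highest in KO replicate 4, and its log2 fold change was 0.15 ± 0.154 (SE, edgeR, adjusted p = 0.969), and 0.08 ± 0.157 without WT replicate 4.

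The Pea3-type factors did not share the excess in WT replicate 4. *Etv1* (chr12:38779380-38870484, plus strand), a transcription factor also known from layer 5 projection neurons, was at 84.8, 123, 111 and 91.8 CPM in WT replicates 1 to 4 and at 116, 150.5, 101 and 84.2 CPM in KO replicates 1 to 4. The highest and the lowest sample of *Etv1* were both KO samples, and its log2 fold change was 0.13 ± 0.181 (SE, edgeR, adjusted p = 0.969), and 0.09 ± 0.203 without WT replicate 4. *Etv5* (chr16:22381309-22439719, minus strand) was at 96.5, 103, 117 and 91.8 CPM in the WT samples and at 96.1, 97.8, 121 and 107 CPM in the KO samples. It had the narrowest spread of the 10 genes and a log2 fold change of 0.05 ± 0.10 (SE, adjusted p = 0.971), which was 0.0032 ± 0.0958 without WT replicate 4.

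*Etv4* (chr11:101769742-101785371, minus strand) was the factor with the lowest level, at 6.05, 8.87, 6.25 and 6.73 CPM in WT replicates 1 to 4 and at 8.41, 9.63, 6.89 and 8.35 CPM in KO replicates 1 to 4. All 4 KO samples lay above 3 of the 4 WT samples, and WT replicate 2 lay among the KO samples. The mean was 6.97 ± 1.29 CPM in WT and 8.32 ± 1.12 CPM in KO (SD, n = 4 each). The log2 fold change was 0.25 ± 0.159 (SE, edgeR, unadjusted p = 0.144, adjusted p = 0.969) and 0.24 ± 0.166 without WT replicate 4. Taken one gene at a time, two-sided exact permutation tests of mean log2 CPM over the 70 arrangements of the 8 samples gave p from 0.171 (*Etv4*) to 0.8286, with an adjusted p of 0.8286 over the 10 genes, where the smallest p that the design allows is 0.0286.

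**Figure D2:**
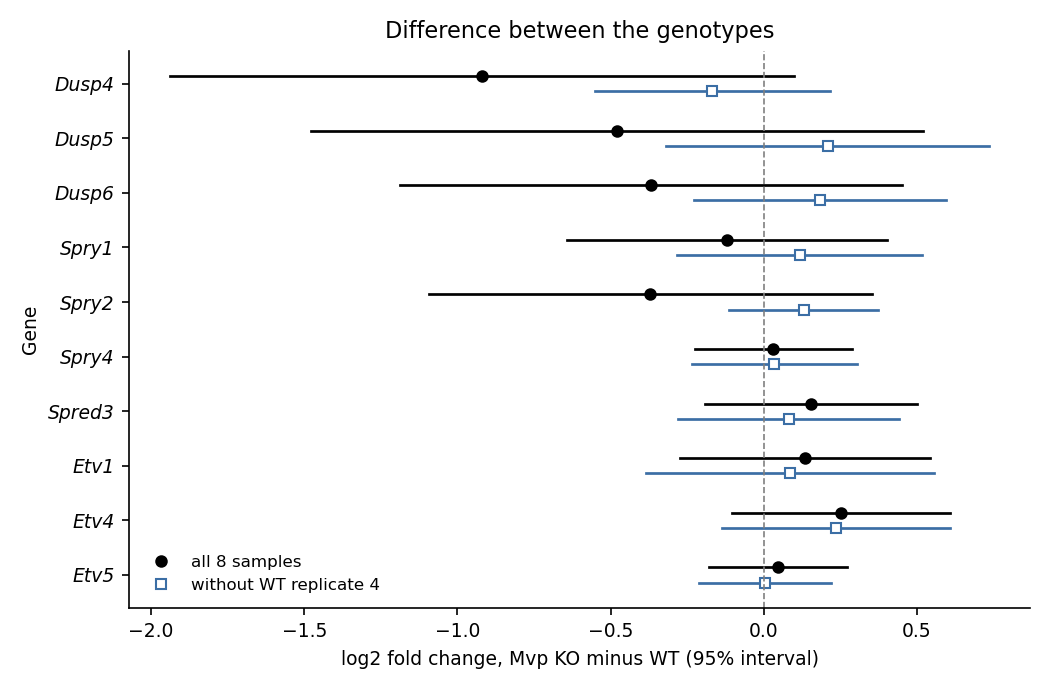
Log2 fold change (Mvp KO minus WT) of each gene with its 95% interval from edgeR's quasi-likelihood fit, with all 8 samples (filled circles) and without WT replicate 4 (open squares). All 20 intervals include 0, and without that sample the 3 phosphatases and Spry2 move toward or past 0 with shorter intervals.

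The intervals give the range of differences that is compatible with these samples. For *Spry4*, *Spred3*, *Etv1* and *Etv5* the 95% interval lay within 1.5-fold in either direction, and for *Spry1* and *Etv4* within 2-fold, so that 4 and 6 of 10 genes were bounded in this way against 64.5% and 86.7% of all genes tested. For *Dusp4* the interval ran from 0.261 to 1.07 times the WT level, for *Dusp5* from 0.359 to 1.43, for *Dusp6* from 0.439 to 1.37 and for *Spry2* from 0.468 to 1.28. Without WT replicate 4 the intervals of all 10 genes lay within 2-fold and those of 7 within 1.5-fold. In that fit 9 of the 10 log2 fold changes were positive, with a median of 0.10 and a range from -0.17 (*Dusp4*) to 0.24 (*Etv4*), but 0 of 10 had an unadjusted p under 0.05 (1.34% of the 17159 genes tested did), the smallest being 0.186. The median over all genes in that fit was 0.00. The shares of all genes bounded within 1.5-fold or 2-fold, or with a positive log2 fold change, were not counted in it. The counts over the 10 genes therefore stand without a background there.

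Levels differed more between the genes than between the genotypes. Per kilobase of exon, the mean over the 8 samples was 35.8 ± 18.1 CPM (SD) for *Dusp6*, 25.9 ± 11.9 for *Spry2* and 25.3 ± 2.54 for *Etv5*. *Dusp6* was above *Spry2* in 8 of 8 samples, whereas *Spry2* was above *Etv5* in 2 of 8, so that the order of that pair was not clear. *Spred3* followed with 11.7 ± 2.10 CPM per kilobase and *Etv1* with 8.10 ± 1.69. *Etv1* is divided here by 13296 exonic bases of all its annotated transcripts together, against 2087 to 6218 for the other 9 genes, and a shorter transcript would give it a higher value. *Dusp5* with 6.53 ± 4.11, *Dusp4* with 5.80 ± 4.53 and *Spry4* with 4.34 ± 0.468 CPM per kilobase could not be ordered, since each was above the next in 5 and 4 of 8 samples. *Etv4* with 2.46 ± 0.429 and *Spry1* with 1.62 ± 0.408 CPM per kilobase were the lowest.

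**Figure D3:**
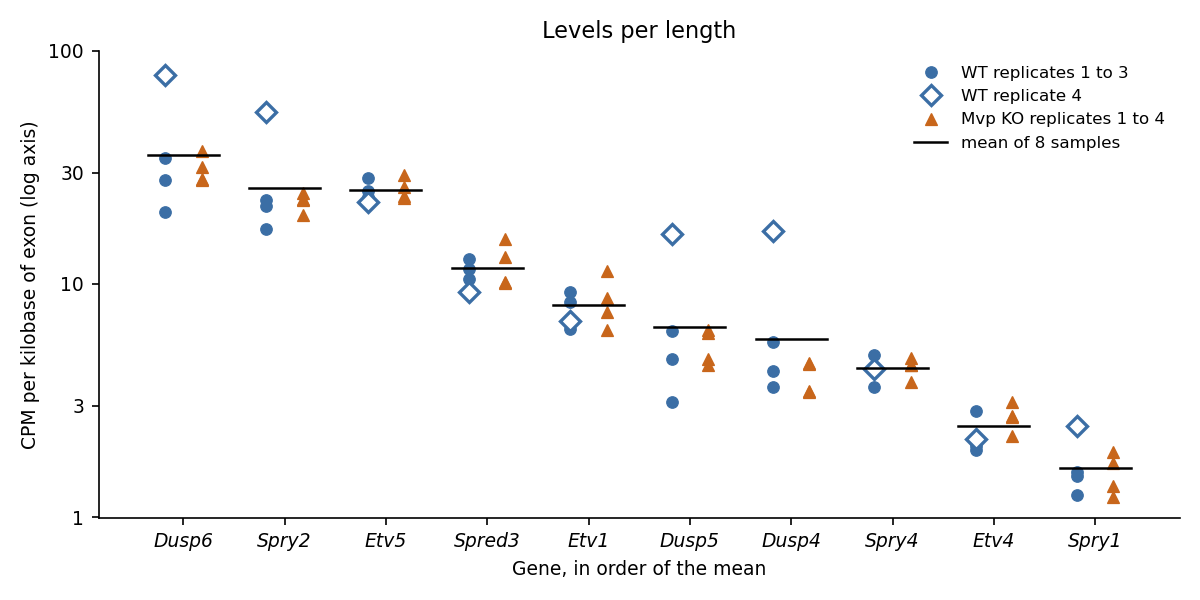
CPM per kilobase of exon (log axis) in each of the 8 samples for the 10 genes in order of their mean (bar), from Dusp6 at 35.8 to Spry1 at 1.62. Neighbours such as Spry2 and Etv5 or Dusp5, Dusp4 and Spry4 overlap, and the spread of Dusp6, Spry2, Dusp5 and Dusp4 is set by WT replicate 4.

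The split of the 10 genes in WT replicate 4 followed the gene families only in part. This sample was the highest of 8 for *Dusp4*, *Dusp5*, *Dusp6*, *Spry1* and *Spry2*, 5 of the 10 genes, beside 29.2% of all genes tested. Its log2 CPM was above the median of the other 7 samples by 1.98 for *Dusp4*, 1.77 for *Dusp5*, 1.48 for *Dusp6*, 1.26 for *Spry2* and 0.70 for *Spry1*, which is 3.96-fold, 3.40-fold, 2.79-fold, 2.39-fold and 1.63-fold. At least 2-fold up in this sample were 4 of 10 genes, beside 3.96% of all genes tested. For the other 5 genes the difference was -0.06 for *Spry4*, -0.17 for *Etv5*, -0.28 for *Etv1*, -0.31 for *Etv4* and -0.33 for *Spred3*, where the median over all genes was -0.04 and the lower quartile -0.34. *Spred3* and *Etv5* were lowest of the 8 samples in WT replicate 4. A single sample has no replicate, so these differences carry no test, and the labels name no treatment that sets it apart.

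At the other end, WT replicate 1 had the lowest value of the 8 samples for *Dusp5*, *Dusp6*, *Spry2*, *Spry4* and *Etv4*, 5 of the 10 genes, where 8.63% of all genes tested were lowest in it. This was seen in the values and not looked for beforehand. The samples other than WT replicate 4 still differed among themselves: their highest value was 2.04 times the lowest for *Dusp5*, 1.83 times for *Dusp6*, 1.63 times for *Dusp4* and 1.26 times for *Etv5*.

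The relatives of these genes showed a similar mixture. Of 7 other MAP kinase phosphatases, 0 passed the test between the genotypes in either direction. Beside 29.2% of all genes tested, 4 of the 7 were highest in WT replicate 4. *Dusp9*, an ERK phosphatase, was at 3.14 CPM there against 0.277 to 0.973 CPM in the other 7 samples, and *Dusp2*, an inducible nuclear phosphatase, at 1.62 against 0.501 to 0.990 CPM. *Dusp1*, the phosphatase of the stress response, was in contrast inside the range of the others at 55.4 CPM and highest in KO replicate 2 with 118 CPM (log2 fold change 0.61 ± 0.336, edgeR, adjusted p = 0.969). Of the other Sprouty and Spred genes, *Spred2* was at 186 CPM in WT replicate 4 against 76.9 to 117 CPM, while *Spred1* at 347 CPM was inside the range of 283 to 373 CPM, and *Spry3* was not tested.

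Other targets of ERK were likewise divided, with 0 of 11 tested passing in either direction and *Fosl1* too low to be tested. Beside 29.2% of all genes tested, 6 of the 11 were highest in WT replicate 4. *Fos*, a component of AP-1, was at 153 CPM against 32.5 to 147 CPM and *Errfi1*, a feedback inhibitor of the EGF receptor, at 85.6 against 36.1 to 46.0 CPM. The 2 targets with the smallest p, *Fosl2* (log2 fold change -0.47 ± 0.282, edgeR, adjusted p = 0.969) and *Ier3* (-0.36 ± 0.232, adjusted p = 0.969), were highest in WT replicate 4 as well. Of the 8 Ets factors outside the Pea3 group, 0 passed. In WT replicate 4, 2 of the 8 were highest, beside 29.2% of all genes tested. Another 2 were lowest there, beside 5498 of the 16914 genes tested. The 2 highest were *Etv3*, a repressor of the Ets family, at 203 CPM against 47.3 to 55.2 CPM, and *Erf*, an Ets repressor that ERK moves out of the nucleus, at 50.3 against 29.6 to 37.9 CPM.

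Between the growth factors and ERK lie the receptors, the Ras proteins and the kinases of the cascade. Of 12 receptor tyrosine kinases, 18 adaptors, Ras proteins and Ras regulators, and 14 Raf, MEK, ERK and RSK kinases, 0 passed in either direction, and 3, 3 and 4 of them were highest in WT replicate 4, beside 29.2% of all genes tested. *Mapk3* (ERK1) had a mean of 153 ± 35.5 CPM in WT and 139 ± 28.6 CPM in KO (SD, n = 4 each, log2 fold change -0.13 ± 0.191, edgeR, adjusted p = 0.969). In WT replicate 4 *Mapk3* ranked 5 of 8 samples. *Met*, the receptor of hepatocyte growth factor, was at 28.4 CPM there against 4.39 to 8.18 CPM, and *Igf1r*, the receptor of insulin-like growth factor, at 156 against 87.9 to 110.5 CPM. Lower in that sample than in any other were *Rps6ka5*, a nuclear kinase that ERK activates, at 16.6 against 28.0 to 37.3 CPM, and *Ksr2*, a scaffold of the cascade, at 63.2 against 81.1 to 100.4 CPM. Of the 18 adaptors, Ras proteins and Ras regulators, 7 were lowest in WT replicate 4, beside 5498 of the 16914 genes tested. *Gab1*, a docking protein below the receptors, was among these 7, at 14.3 against 16.0 to 37.1 CPM. *Rasgrp1* of the same list was instead highest there, at 1073 against 604 to 771 CPM.

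Of the 14 growth factor genes 0 passed. Beside 29.2% of all genes tested, 7 of the 14 were highest in WT replicate 4. *Bdnf*, the ligand of the TrkB receptor, was at 599.5 CPM in it against 43.4 to 86.9 CPM in the other samples, while *Ntf3*, the ligand of TrkC, was at 0.222 CPM against 1.14 to 3.10 CPM. *Egf*, the founding ligand of the EGF receptor, had a higher level in each KO sample than in any WT sample. It was the 1 gene of the 14 without overlap of the genotypes, beside 1.52% of all genes tested. Its level was low, at 1.27 ± 0.133 CPM in WT and 1.75 ± 0.188 CPM in KO (SD, n = 4 each). The log2 fold change of *Egf*, 0.46 ± 0.174, did not hold up over all genes (SE, edgeR, unadjusted p = 0.0256, adjusted p = 0.969). *Sst* of the interneuron list was also without overlap, but lower in KO (-0.52 ± 0.196, unadjusted p = 0.0267, adjusted p = 0.969). The immediate early genes, which neuronal activity induces in part through ERK, had 0 of 10 past the threshold between genotypes. The 10 early genes had 8 highest in WT replicate 4 and 9 lowest in WT replicate 1, beside 29.2% and 8.63% of all genes tested. Their median log2 difference between WT replicate 4 and the other samples was 1.15, against 0.32 for the 10 ERK feedback and target genes, 0.29 for the other phosphatases, 0.35 for the other ERK targets and 0.09 for the Raf, MEK, ERK and RSK kinases. *Fos* and *Egr1* stand in both the early gene and the ERK target list.

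**Figure D4:**
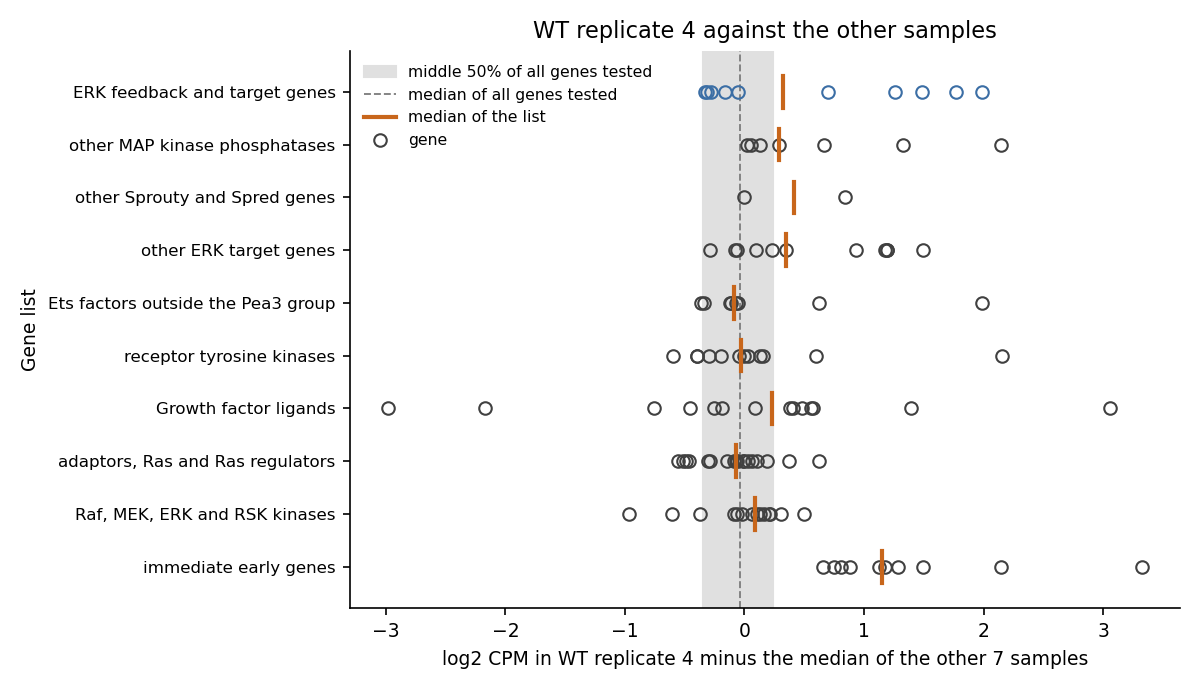
Log2 CPM in WT replicate 4 minus the median of the other 7 samples, with 1 open circle per gene in 10 lists, the median of each list as a bar, and the median and middle 50% of all genes tested as a dashed line and grey band. The 10 ERK feedback and target genes split into 5 between 0.70 and 1.98 and 5 between -0.33 and -0.06, and all 10 immediate early genes lie above the grey band.

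Of the 10 genes, 4 ranged over at least 1 in log2 CPM with its prior count of 2 (*Spry1* fell just short, at 0.99), and for these the genes of most similar profile were sought among the tested genes outside the 10, by the root mean square difference of log2 CPM centred on the gene's mean over the 8 samples. For *Dusp6* these were *Slc16a6*, a monocarboxylate transporter family gene (0.107), and *Espn*, which encodes an actin-bundling protein (0.131), and for *Spry2* they were *Nkain1* (0.101) and *Nrn1*, the activity-regulated gene of neuritin (0.109). *Dusp6* and *Spry2* lay at 0.126 from each other, nearer than *Espn* to *Dusp6*. For *Dusp4* the nearest were *Eme2* (0.146) and *Serpina3n*, an astrocyte-expressed protease inhibitor (0.161), and for *Dusp5* they were *Nexn* (0.161) and *Rel*, an NF-κB subunit (0.205). The nearest of the 10 genes was *Dusp6* for both of them, at 0.337 for *Dusp4* and 0.203 for *Dusp5*. All 8 of these neighbours were highest in WT replicate 4, as *Nrn1* with 590.1 CPM against 201 to 286 CPM. That sample is included in these distances and sets much of the range of the 4 genes. A nearest profile was therefore bound to be high in it, and this is no separate result.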

How the data were processed

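RNA of the cingulate cortex in 4 WT and 4 *Mvp* KO samples from male mice was sequenced as stranded single-end polyA libraries. The authors trimmed the reads with cutadapt 1.10, removed ribosomal reads with Bowtie2 2.2.8, aligned them with STAR 2.5.3a to mm10, counted them per gene with HTSeq 0.6.1p1 and deposited raw counts of 53379 Ensembl genes. Neither the counting mode nor its strand setting is given in the sources used here, so overlapping genes can lose or share reads. Symbols, coordinates and exonic lengths came from GENCODE vM21 on GRCm38, which holds 53274 of the identifiers.

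The counts were fitted with edgeR 4.0.16 under R 4.3.3: filterByExpr with a minimum count of 10 and total of 15, TMM factors, and a robust quasi-likelihood fit with genotype as its term, with Benjamini-Hochberg adjustment over all 16914 genes tested and a threshold of 0.05. Log2 CPM used a prior count of 2. Alternatives were DESeq2 1.42.0 (its size factors and its Wald test), limma 3.58.1 voom with quality weights, other filters, the replicate number as a block, and leaving out each sample in turn. Each kind of fit was tested on simulated counts. Levels between genes were compared per exonic kilobase. Tables and figures used Python 3.11.15, pandas 2.3.3, NumPy 2.4.6 and matplotlib 3.10.9.

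Depth was 28456504 to 42854368 counts in a sample. For genes with many counts, counting error was small beside the spread between samples (common biological coefficient of variation 18.3%). It weighs more for genes of few counts, such as *Egf*, *Ntf3*, *Dusp2* and *Dusp9*. The labels do not say that samples were separate animals, though the paper describes all of its replicates as biological. The p-values measure the spread between these samples. The chi-square per gene between samples of a genotype was 6.94 to 96.4, so no library appears to have been deposited as 2 samples. The 10 genes, the other lists and the tests were chosen with earlier results of these data known. Named were *Mvp*, the 10 genes, *Mapk3*, from the other lists the 2 genes with the smallest p and the 2 with the largest difference of WT replicate 4 from the median of the other 7 samples, and the 2 genes of nearest profile for each gene that ranged over at least 1 in log2 CPM. Some items that come under this rule are left out of the text, and *Camk2a*, *Ier2* and *Egr1* were named after their values were seen.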

Additional observations from a re-analysis of the deposited data

Results flagged for a closer look

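Dixon's ratio, the gap between an extreme sample and its nearest neighbour divided by the range of the group, was computed for the total counts and for the CPM and log2 CPM of the 10 genes within each genotype, in 42 groups of 4 samples against its 95% critical value. It was passed in 3 groups, where chance gives about 1 in 20. *Dusp4* passed in WT on the CPM scale (0.849), with 46.2 CPM in WT replicate 4 against 9.94 to 15.4 CPM in WT replicates 1 to 3. *Spry2* passed in WT on the CPM scale (0.846), with 114 CPM in WT replicate 4 against 35.9 to 48.0 CPM. On the log2 scale neither gene passed. The total counts passed in WT (0.857), with 42854368 counts in WT replicate 2 against 33408202 to 34760784 in the other 3, and CPM is scaled for this.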

How the results depend on the processing

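Of the 10 genes, 0 passed an adjusted p of 0.05 in the main fit, in 6 alternative fits and in 8 fits with 1 sample left out. At an unadjusted p under 0.05 the 8 fits gave 0 to 1 of them, which was *Dusp4* without WT replicate 1 (0.027) and without WT replicate 3 (0.039) and *Etv4* without WT replicate 2 (0.027). The number of genes past adjusted p 0.05 was 1 in the main fit, 2 with DESeq2's Wald test and 2 with limma voom (*Mvp* and *Bc1* in both), and 0 to 1 in the 8 fits (1 without WT replicate 4 and without KO replicate 3, with 193 to 471 genes at an unadjusted p under 0.05 in the 8). With the replicate number as a block it was 0, with 328 genes at an unadjusted p under 0.05 and a median log2 fold change of -0.03 over the 10 genes, 0 of which had an unadjusted p under 0.05. The deviations of same-numbered samples correlated at 0.0548, 0.287, -0.00671 and 0.0507. Differently numbered samples were not compared in this way, so whether the numbers mark pairs cannot be told from these values. The median log2 fold change of the 10 genes ran from -0.15 to 0.10 in the 8 fits. With limma voom, which weights samples by quality, the log2 fold change reversed to 0.071 for *Dusp5*, 0.10 for *Dusp6*, 0.0035 for *Spry2* and -0.047 for *Etv1*. Leaving out a sample gave a range of -1.16 to -0.17 for *Dusp4*, -0.75 to 0.21 for *Dusp5*, -0.60 to 0.18 for *Dusp6*, -0.56 to 0.13 for *Spry2*, -0.25 to 0.12 for *Spry1*, -0.046 to 0.11 for *Spry4*, -0.040 to 0.25 for *Etv1* and -0.024 to 0.12 for *Etv5*. For *Dusp5*, *Dusp6*, *Spry1* and *Spry2* the sign turned without WT replicate 4, for *Spry4* without WT replicate 1 or KO replicate 4, for *Etv1* without KO replicate 2 and for *Etv5* without KO replicate 3. The cause was not tested. The number of genes highest in WT replicate 4 stayed 5 under size factors and under plain library totals. The median SE of the 10 genes was 0.207, and 0.168 without WT replicate 4.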

Other observations

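Oligodendrocyte markers varied between the KO samples. *Mbp*, the myelin basic protein gene, was at 2219 CPM in KO replicate 1 and at 1531.5 CPM in KO replicate 2, against 540.03 to 1143 CPM in the other 6 samples. The lowest of these was WT replicate 4. The log2 fold change of *Mbp* was 0.67 ± 0.383 (SE, edgeR's quasi-likelihood test, adjusted p = 0.969). *Olig2*, from the separate list of 5 oligodendrocyte precursor markers, had a log2 fold change of 0.36 ± 0.143 (SE, edgeR, adjusted p = 0.969). The median of that list was 0.06, with 4 genes higher and 1 lower in KO, the latter being *Gpr17* at -0.11.

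KO replicate 2 also had the highest value of the 8 samples for *Dusp1*, *Btg2* and *Ier2*, which are early response genes. Of the 10 immediate early genes, however, 8 were highest in WT replicate 4. The share of all genes highest in KO replicate 2 was not counted. *Btg2* was at 130.4 CPM in KO replicate 2 against 18.8 to 54.2 CPM in the other 7 samples, and its log2 fold change of 0.93 ± 0.548 (SE, edgeR, adjusted p = 0.969) did not pass the test.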
